A study of Mus musculus with 24 samples.

Results

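A set of 10 genes of insulin and insulin-like growth factor (IGF) signalling was followed across a mouse hypothalamic cell line cultured in normal and high glucose and treated with mogroside V or left untreated. The genes were taken as a list of symbols, drawn up with earlier results of these data known and with no threshold on a measured value. They are the receptor genes Insr, Igf1r and Igf2r, the adaptor genes Irs1 and Irs2, the transcription factor gene Foxo1, and the IGF binding protein genes Igfbp2, Igfbp4, Igfbp5 and Igfbp6. These are 10 of the 56941 gene IDs in each library's count table. All 10 were among the 13281 genes that passed the filter on low counts.

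Insulin and IGF1 bind related receptor tyrosine kinases, which phosphorylate the adaptors IRS1 and IRS2 and so start PI3K and AKT signalling. AKT keeps the transcription factor FOXO1 out of the nucleus, and in many cells nuclear FOXO1 raises the transcription of Insr and Irs2. IGF binding proteins hold IGFs outside the cell until proteases release them, and IGF2R binds IGF2 and carries it to lysosomes. In the hypothalamus insulin acting on its receptor takes part in the control of feeding and of glucose output by the liver.

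The samples were polyadenylated RNA from 1 cell line, which the labels name only as hypothalamic cells. From the titles, NGC and HGC were taken as untreated cells in normal and in high glucose. NG1 to NG3 and HG1 to HG3 were taken as the same media with mogroside V at dose labels 1 to 3. Mogroside V is a sweet glycoside from monk fruit. The series design lists 15, 60 and 160 µM, which no label assigns to the numbers, so dose labels are used. Of the 24 files 2 held the same values, those of HG2 replicate 3 and HG3 replicate 2, and both were left out. This left 22 libraries, 12 in normal and 10 in high glucose, with n = 3 in 6 groups and n = 2 in HG2 and HG3. The labels give neither glucose concentrations nor exposure times, and do not say whether replicates were separate cultures, so the p-values cover the spread between these samples only, which may be technical. Batches are not labelled, and a difference of batch between the media cannot be told apart from one of glucose.

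Gene counts ranged from 3396249 to 7773074 over the 22 libraries. Among these libraries NG3 replicate 3 had the fewest genes with a count (16535). Its share of reads outside genes was the smallest (14.4%) and that of reads aligned to several places the largest (18.9%). Of 12 neuronal markers 6 were expressed enough to be tested. The 12 summed to 136 to 187 CPM (gene counts scaled to a common library total) in normal and 142 to 165 CPM in high glucose. Most of that neuronal sum came from Tubb3, Map2, Eno2 and Stmn2 (means of 58.8, 47.5, 24.7 and 17.9 CPM). Rbfox3, Syp, Snap25, Syt1 and Elavl3 had means of at most 0.44 CPM, and Elavl4 had a count of 0 in all 22 libraries. None of 12 hypothalamic peptide and factor genes was expressed enough to be tested, and their sum reached at most 2.15 CPM in any library, so the defining genes of the labelled tissue were absent or near 0. Of 9 fibroblast and pericyte markers 7 were tested, with sums of 5431 to 7722 CPM in normal and 7169 to 8089 CPM in high glucose. Most of that sum came from Col1a2, Acta2 and Col1a1 (means of 3319, 1744 and 1368 CPM). Dcn was low at 7.70 CPM, Rgs5 stood at 0.83 CPM and Lum had a count of 0 in 18 of 22 libraries. In such bulk RNA, fewer cells that express a gene and less RNA of it per cell cannot be told apart.

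Promoter sequence is shown for the 3 genes that rose in high glucose, Irs2, Igf2r and Igfbp4, and for Irs1, the second adaptor, whose level did not pass the test. The sequences are the 250 bases before the gene start in RefSeq for GRCm38.p6, each 5′ to 3′ on the strand of its gene. Capitals mark the E-box CACGTG, the letters that several basic helix-loop-helix factors bind.
Irs2, chr8:11008930-11009179 (minus strand): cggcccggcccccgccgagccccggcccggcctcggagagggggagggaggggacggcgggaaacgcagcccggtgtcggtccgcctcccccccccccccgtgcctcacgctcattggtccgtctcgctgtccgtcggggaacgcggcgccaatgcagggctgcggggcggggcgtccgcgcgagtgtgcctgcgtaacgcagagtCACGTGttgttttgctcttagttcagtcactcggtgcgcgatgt
Irs1, chr1:82291440-82291689 (minus strand): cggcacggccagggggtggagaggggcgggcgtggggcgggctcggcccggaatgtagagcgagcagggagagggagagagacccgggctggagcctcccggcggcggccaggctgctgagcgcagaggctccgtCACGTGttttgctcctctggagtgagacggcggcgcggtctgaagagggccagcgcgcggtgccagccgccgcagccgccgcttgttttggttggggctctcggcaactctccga
Igf2r, chr17:12769707-12769956 (minus strand): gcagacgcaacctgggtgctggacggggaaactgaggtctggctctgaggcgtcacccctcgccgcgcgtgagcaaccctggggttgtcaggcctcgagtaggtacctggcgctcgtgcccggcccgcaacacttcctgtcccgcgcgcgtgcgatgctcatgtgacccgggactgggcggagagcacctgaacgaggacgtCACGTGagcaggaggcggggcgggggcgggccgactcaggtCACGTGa
Igfbp4, chr11:99040994-99041243 (plus strand): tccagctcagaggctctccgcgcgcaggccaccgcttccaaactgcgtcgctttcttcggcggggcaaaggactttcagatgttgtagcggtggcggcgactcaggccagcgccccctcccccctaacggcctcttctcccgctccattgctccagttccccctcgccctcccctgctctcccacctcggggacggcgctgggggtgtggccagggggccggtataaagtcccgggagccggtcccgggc

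Windows were matched for 9 of the 10 genes, 2 of them for Igfbp2. The E-box CACGTG, which reads the same on both strands, was found once in the windows of Irs2 and Irs1 and in 1 window of Igfbp2, with 38, 109 and 136 bases between the match and the start. Igf2r had it at 2 places, with 42 bases and 1 base left to the start, and Igfbp4 had none. The windows with a match were 67.2 to 72.8% G or C. Over all 32851 windows of this length, whatever their base composition, 6.02% held a CACGTG. The longer form GTCACGTG, which contains it, was in the windows of Irs1, Irs2 and Igf2r and in 1.85% of all windows. Irs1 and Irs2 shared the run GTCACGTGTT, with 107 and 36 bases left to the start, a run found in 23 of the 32851 windows. The core TGTTTTG of insulin response elements, searched on both strands, was present in Irs1 (2 matches) and Irs2 (1 match) and in 5.56% of all windows. The FOXO consensus GTAAACA was in none of the 9 genes' windows and in 3.17% of all. Such a match is a description of letters, not a site of binding, and no factor binding was measured here.

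Levels differed widely among the 10 genes. Per kilobase of exon, the binding protein genes Igfbp4 and Igfbp6 were highest, at 88.6 ± 17.0 and 79.4 ± 11.9 CPM per kb (mean ± SD over 22 libraries). Over all libraries these neighbours did not differ beyond their spread. Igfbp4 lay below Igfbp6 per kilobase in NGC and above it in high glucose, while treated normal-glucose libraries lay on both sides. The ratio of Igfbp4 to Igfbp6 per kilobase was 0.64 to 0.79 in NGC and 1.34 to 1.71 in the 10 high-glucose libraries. Over the 12 normal-glucose libraries it was 0.87 ± 0.13 and ran up to 1.02, in NG1. This order rests on the merged exon lengths, 4.416 kb for Igfbp4 and 1.112 kb for Igfbp6. In CPM Igfbp4 was higher than Igfbp6 in every library. Next came Igf1r (13.1 ± 1.41), Irs2 (11.8 ± 3.60) and Igfbp2 (10.2 ± 3.94 CPM per kb), which also overlapped in spread. Igf2r stood at 6.42 ± 1.03 and Irs1 at 5.05 ± 0.69 CPM per kb, followed by Foxo1 at 3.65 ± 0.65. Insr (1.12 ± 0.22) and Igfbp5 (0.99 ± 0.36 CPM per kb) were lowest. The cells thus held more mRNA for the IGF1 receptor than for the insulin receptor per unit length, with a ratio of 11.7 ± 2.73 in the 12 normal-glucose and 12.4 ± 2.02 in the 10 high-glucose libraries. The deepest count behind any of these values was 3482, for Igfbp4, and the smallest was 12, for Igfbp5, where counting error alone is large.

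**Figure D1:**
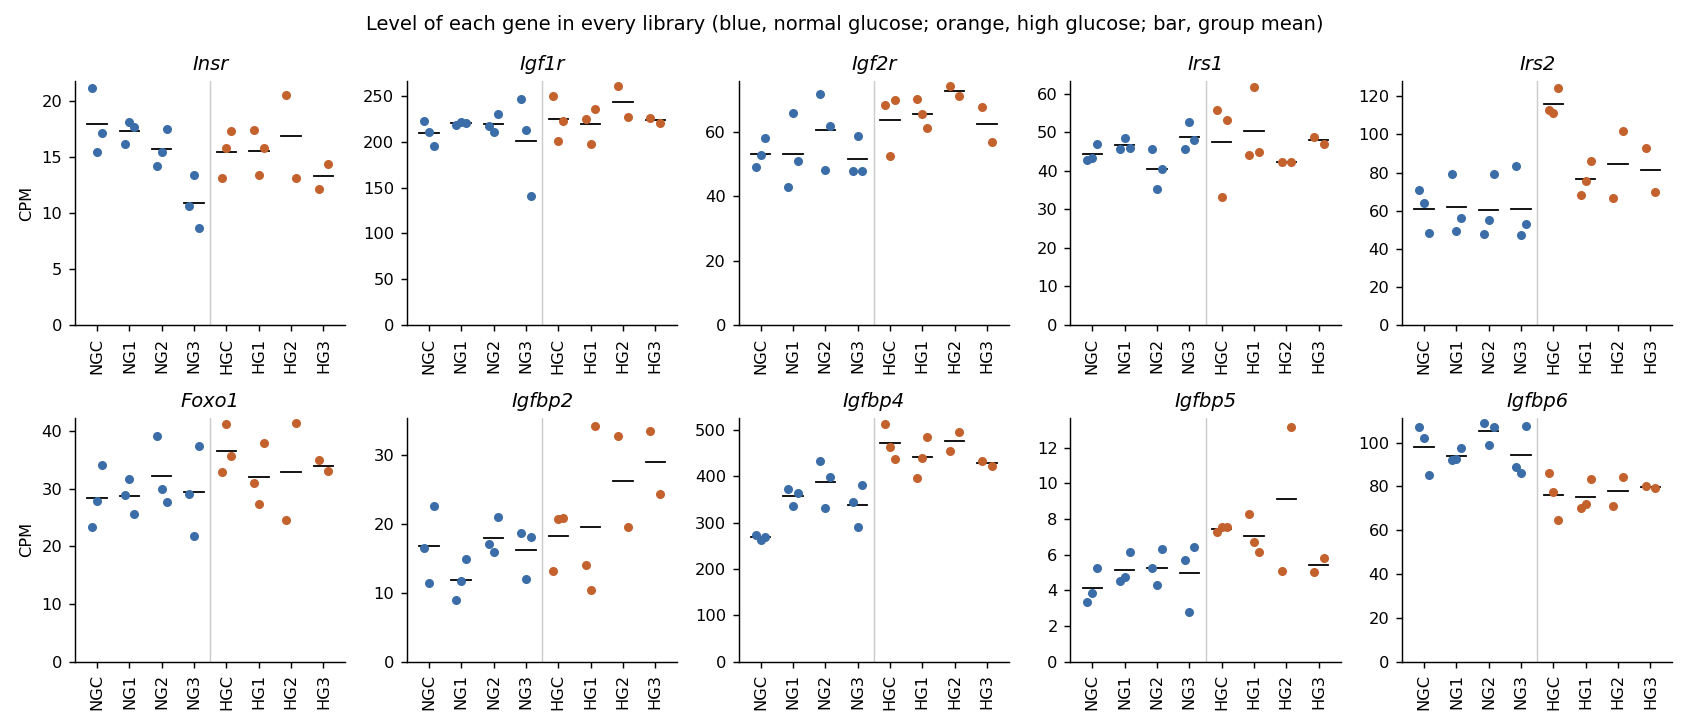
Level in CPM (vertical axes, from 0, a separate scale for each gene) of the 10 genes in each of the 22 libraries by group (horizontal axes), with a bar at each group mean. The 3 HGC libraries of Irs2 lie at 111 to 124 CPM, above all others, and the 3 NGC libraries of Igfbp4 lie at 262 to 274 CPM, below all others.

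The main question for these genes was how they differed between the media. Averaged over control and the 3 dose labels, high glucose was set against normal glucose in 10 against 12 libraries. Igfbp4, Irs2 and Igf2r rose and Igfbp6 fell, so 3 of the 10 genes rose and 1 fell. Among all tested genes 10.1% were called in this comparison, 5.71% higher and 4.38% lower. The median log2 change of the 10 genes was 0.23, beside -0.01 over all genes tested. Groups that do not overlap between the media were found for none of the 10 genes and for 0.919% of all genes.

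Among the receptors, Igf2r, which clears IGF2 and sorts lysosomal enzymes, was measured at 49.1, 52.8 and 58.0 CPM in NGC, 42.9, 66.0 and 51.0 in NG1, 71.9, 48.3 and 61.8 in NG2 and 47.8, 58.9 and 47.8 in NG3. In high glucose it stood at 68.3, 52.6 and 70.1 CPM in HGC, 70.2, 65.7 and 61.2 in HG1, 74.3 and 71.2 in HG2 and 67.9 and 56.8 in HG3. The high-glucose libraries lay mostly above, but the ranges overlapped from 52.6 to 71.9 CPM. Over all levels Igf2r rose 1.21-fold, by 0.27 ± 0.08 (SE) on the log2 scale (edgeR quasi-likelihood test, Benjamini-Hochberg adjusted p = 0.0293). That call was lost in 6 of the 22 fits without 1 library, those without NG1 replicate 1 (adjusted p = 0.0551), HGC replicate 1 (0.0513), HGC replicate 3 (0.0574), HG1 replicate 1 (0.0524), HG2 replicate 1 (0.0661) or HG3 replicate 1 (0.0965). Igf2r lies over the antisense RNA Airn, which was listed at 4.43 to 14.8 CPM, and whether counting used strand is not stated by the labels or notes, so their reads cannot be told apart where they overlap.

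Insr, the insulin receptor, had a median of 15.8 CPM in normal glucose (lowest 8.67, highest 21.2) and of 15.1 CPM in high glucose (12.2 to 20.6). The log2 difference was 0.00 ± 0.12 with an interval (95%, from the fit) of -0.24 to 0.25. Igf1r, the IGF1 receptor, had a median of 218 CPM in normal glucose (141 to 248) and 226 CPM in high glucose (198 to 261). Its lowest value, 141 CPM, was in NG3 replicate 3. The log2 difference of Igf1r was 0.10 ± 0.07 and its interval ran from -0.04 to 0.24. Neither receptor gene passed the test (edgeR adjusted p = 0.997 and 0.402), and both intervals end below the 0.54 measured for Irs2.

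The 2 adaptors parted. Irs2 was measured at 70.6, 63.9 and 48.3 CPM in NGC, 79.5, 49.5 and 56.2 in NG1, 47.8, 54.9 and 79.1 in NG2 and 83.4, 47.1 and 52.8 in NG3. In HGC it reached 113, 111 and 124 CPM, against 68.3, 75.6 and 86.0 in HG1, 66.9 and 102 in HG2 and 93.0 and 69.6 in HG3. The 3 HGC libraries were the highest of all 22, while the treated high-glucose libraries overlapped the upper part of the normal-glucose range. Over all levels Irs2 rose 1.45-fold (log2 0.54 ± 0.12, edgeR adjusted p = 0.00642), a call kept in every one of 31 alternative fits. Irs1, the adaptor tied above all to growth and to insulin action in muscle, had a median of 45.7 CPM in normal (35.4 to 52.6) and 46.0 CPM in high glucose (33.1 to 61.9). Its log2 difference of 0.06 ± 0.09 did not pass (edgeR adjusted p = 0.755), with an interval of -0.12 to 0.24. The ratio of Irs2 to Irs1 per kilobase, chosen after the values were seen and given without a test, was 2.0 ± 0.46 in NGC and 3.72 ± 1.01 in HGC (SD, n = 3). It was 2.26 in HG1, 2.88 in HG2 and 2.44 in HG3.

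Foxo1 had a median of 29.0 CPM in normal glucose (21.8 to 39.2) and 33.9 CPM in high glucose (24.5 to 41.3). Its log2 difference of 0.19 ± 0.11 did not pass (edgeR adjusted p = 0.300), with an interval of -0.03 to 0.41.

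Binding protein genes moved in both directions. Igfbp4, an inhibitory binding protein that the protease PAPP-A cuts, was measured at 274, 262 and 268 CPM in NGC, 374, 336 and 365 in NG1, 434, 332 and 399.5 in NG2 and 345, 292 and 380.5 in NG3. In high glucose it stood at 514, 464 and 438 CPM in HGC, 398, 441 and 485 in HG1, 455 and 497 in HG2 and 434 and 422 in HG3. All high-glucose libraries lay above all normal-glucose libraries except NG2 replicate 1 and NG2 replicate 3, which reached into the lower end of the high-glucose range. Igfbp4 rose 1.35-fold (log2 0.44 ± 0.06, edgeR adjusted p = 6.03e-07), and no alternative fit ended that call.

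Igfbp6, which binds IGF2 more tightly than IGF1, went the other way. It was measured at 107, 102 and 85.4 CPM in NGC, 91.9, 92.3 and 97.3 in NG1, 109, 98.9 and 107 in NG2 and 88.8, 86.3 and 107.5 in NG3. In HGC it stood at 86.3, 77.5 and 64.6 CPM, in HG1 at 70.2, 72.1 and 83.5, in HG2 at 71.0 and 84.4 and in HG3 at 80.3 and 79.3. Only HGC replicate 1 reached into the range of the normal-glucose libraries, whose lowest value was 85.4 CPM. Igfbp6 fell by 0.34 ± 0.07 on the log2 scale (edgeR adjusted p = 0.000613), also in all 31 alternative fits.

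The ratio of Igfbp4 to Igfbp6 in CPM, chosen after the values were seen and thus a description, ran from 2.55 to 4.07 in the 12 normal-glucose libraries and from 5.32 to 6.78 in the 10 high-glucose libraries. These ranges did not overlap.

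Igfbp2 and Igfbp5 had higher mean levels in high glucose without passing the test. Igfbp2, a binding protein gene of developing brain and of glia, had a median of 16.2 CPM in normal (9.01 to 22.6) and 20.8 CPM in high glucose (10.5 to 34.2). Its log2 difference was 0.55 ± 0.18 (edgeR adjusted p = 0.0533). It passed in 12 of the 31 alternative fits, for example with DESeq2 (adjusted p = 0.0196), and its adjusted p ranged from 0.000676 to 0.168. Igfbp5, a binding protein of matrix and bone, was low, with a median of 4.99 CPM in normal (2.78 to 6.44) and 6.98 CPM in high glucose (5.02 to 13.2). Its log2 difference was 0.56 ± 0.20 (edgeR adjusted p = 0.0674). Igfbp5 passed in 4 of the 31 alternative fits (lowest adjusted p of 0.0248, without HG2 replicate 1; highest 0.389).

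**Figure D2:**
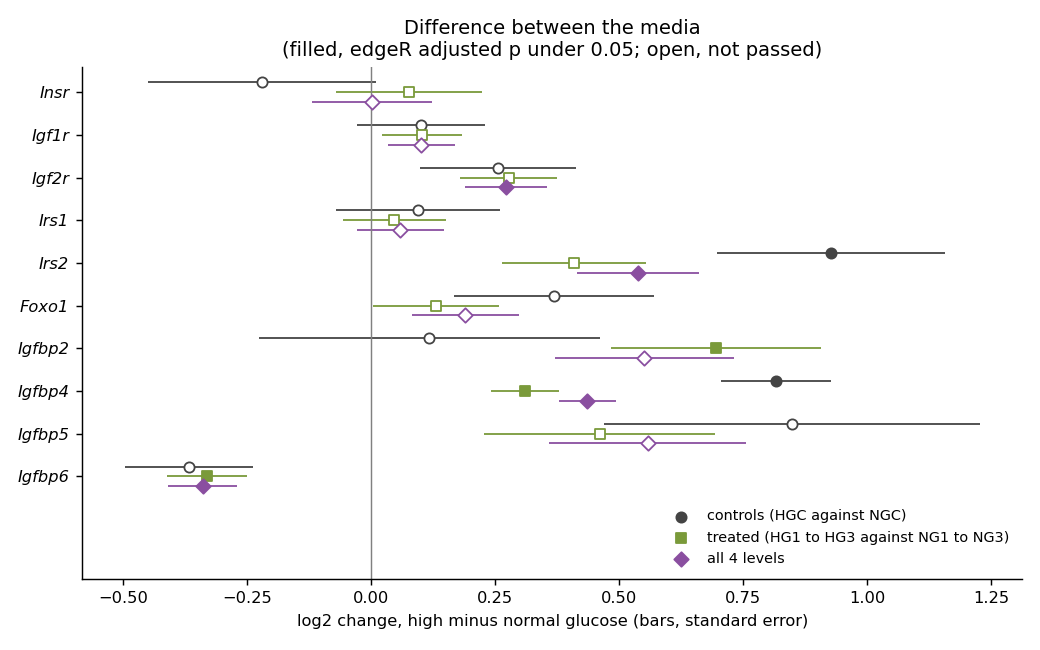
Log2 change between high and normal glucose (horizontal axis, bars of 1 standard error) for the 10 genes in the controls (circles), in the treated libraries (squares) and over all 4 levels (diamonds), filled where the edgeR adjusted p was under 0.05. Igfbp4 is filled in all 3 comparisons, and Irs2 lies at 0.93 in the controls and 0.41 in the treated libraries.

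The difference between the media was then split into controls and treated libraries, which share no library. Between the controls (HGC against NGC, n = 3 each), 2 of the 10 genes rose and 0 fell, where 2.28% of all genes were called, 1.89% higher and 0.392% lower. Igfbp4 rose 1.76-fold (log2 0.82 ± 0.11, edgeR adjusted p = 3.71e-06) and Irs2 1.90-fold (log2 0.93 ± 0.23, adjusted p = 0.0373). Irs2 did not pass in any fit that left out 1 of these 6 libraries (adjusted p from 0.0637 without NGC replicate 1 to 0.127 without NGC replicate 3), although its log2 change stayed between 0.79 and 1.05. Igfbp5 also had no overlap between HGC (7.26 to 7.55 CPM) and NGC (3.34 to 5.23 CPM), with a log2 change of 0.85 ± 0.38 (not past the test; edgeR adjusted p = 0.337). Such separation was seen for 3 of the 10 genes and for 17.8% of all genes.

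In the treated libraries (HG1 to HG3 against NG1 to NG3, 7 against 9) 2 genes rose and 1 fell, beside 8.1% of all genes called, 4.69% higher and 3.41% lower. Igfbp4 rose 1.24-fold (log2 0.31 ± 0.07, edgeR adjusted p = 0.00238) and Igfbp2 1.62-fold (log2 0.69 ± 0.21, adjusted p = 0.0422). Igfbp6 fell by 0.33 ± 0.08 on the log2 scale (edgeR adjusted p = 0.00685). Its 7 treated high-glucose libraries (70.2 to 84.4 CPM) all lay below its 9 treated normal-glucose libraries (86.3 to 109 CPM), a separation that 1.72% of all genes had. Irs2 (log2 0.41 ± 0.14, edgeR adjusted p = 0.0949) and Igf2r (0.28 ± 0.10, adjusted p = 0.0748) did not pass. Irs2 passed in 7 of the 31 alternative fits, among them DESeq2 (adjusted p = 0.0341) and the fit without the filter (0.000712), and Igf2r in 5. The call of Igfbp2 held in 9 of the 22 fits without 1 library, those without NGC replicate 2 or 3, NG1 replicate 3, NG2 replicate 3, NG3 replicate 1, HGC replicate 1, HG1 replicate 1 or 2 or HG2 replicate 2. It was lost in the other 13, where its adjusted p rose to 0.171 without HG2 replicate 1. Igfbp6 kept its call in 30 of the 31 alternative fits. The exception was the fit without HG2 replicate 1, which left 1 library in HG2 and gave a log2 change of -0.28.

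At single dose labels 0 of the 10 genes passed the test between the media, where 1.66% (dose label 1), 0.76% (dose label 2) and 0.919% (dose label 3) of all genes were called. The log2 changes of Igfbp4 were 0.30 ± 0.11, 0.29 ± 0.12 and 0.34 ± 0.12, and those of Igfbp6 were -0.32 ± 0.13, -0.43 ± 0.15 and -0.24 ± 0.15. Irs2 stood at 0.31 ± 0.24, 0.50 ± 0.26 and 0.42 ± 0.26. Libraries of the 2 media did not overlap for Igfbp4 and Igfbp6 at each dose label and for Igfbp2 at dose label 3. With 2 or 3 libraries a group such separation was common, at 21.2%, 30.9% and 24.5% of all genes for dose labels 1, 2 and 3.

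Mogroside V was next compared with the control of the same medium. None of the 10 genes passed the test at any dose label in either medium. Across all genes, edgeR called 0% in NG1, 0.00753% (1 gene) in NG2, 0.128% (17 genes) in NG3 and 0% in HG1, HG2 and HG3. At an unadjusted p under 0.05 edgeR counted 648, 858 and 1377 genes in NG1, NG2 and NG3 and 1033, 710 and 599 in HG1, HG2 and HG3, and DESeq2 called 0, 25 and 150 and 9, 0 and 0. The 3 dose labels of a medium share the same control libraries, so their values are set side by side and are not independent of each other.

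In normal glucose Igfbp4 was the gene of the 10 with the lowest p at dose labels 1 and 2. Its log2 change against NGC was 0.42 ± 0.11 in NG1 (edgeR adjusted p = 0.902), 0.54 ± 0.11 in NG2 (0.107) and 0.34 ± 0.11 in NG3 (0.2001). By unadjusted p (0.000549 and 1.95e-05) it ranked 4th of 13281 genes in NG1 and 2nd in NG2. All 9 treated libraries (292 to 434 CPM) lay above all 3 NGC libraries (262 to 274 CPM), a separation that 1.42% of all genes had between these groups. Averaged over the dose labels Igfbp4 was 1.35-fold higher than in NGC (log2 0.43 ± 0.09, edgeR adjusted p = 0.111), in a comparison where edgeR called 0 genes, 1120 genes had an unadjusted p under 0.05 and DESeq2 called 68. DESeq2 called Igfbp4 among them (adjusted p = 0.0045).

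Irs2 did not follow Igfbp4 there. Its log2 change was 0.02 ± 0.24 in NG1, -0.03 ± 0.23 in NG2 and -0.00 ± 0.23 in NG3, and the interval for the mean of the dose labels ran from -0.40 to 0.39. Insr had its lowest values in NG3, at 10.6, 13.4 and 8.67 CPM, against 21.2, 15.5 and 17.1 CPM in NGC. These groups did not overlap, which held for 2 of the 10 genes (Insr and Igfbp4) and for 12.2% of all genes between NG3 and NGC. The log2 change of Insr was -0.72 ± 0.24 (edgeR adjusted p = 0.2001). It was -0.58 (adjusted p = 0.520) without NG3 replicate 3, the library with the fewest genes with a count. Without NG3 replicate 2 it was -0.90 (adjusted p = 0.0789). In NG1 and NG2 Insr differed from NGC by -0.05 ± 0.23 and -0.20 ± 0.23.

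In high glucose the treated libraries of Irs2, taken over all dose labels, lay apart from the control, and those of Igfbp4 did not. Irs2 had log2 changes against HGC of -0.60 ± 0.23 in HG1 (edgeR adjusted p = 0.529), -0.46 ± 0.26 in HG2 (0.927) and -0.51 ± 0.26 in HG3 (0.999). All 7 treated libraries (66.9 to 102 CPM) lay below all 3 HGC libraries (111 to 124 CPM), a separation that 1.72% of all genes had. Averaged over the dose labels the log2 change was -0.52 ± 0.19 with an interval of -0.92 to -0.13 and did not pass (unadjusted p = 0.0124, edgeR adjusted p = 0.927). Here edgeR called 0 genes, 679 had an unadjusted p under 0.05, and DESeq2 called 0. Igfbp4 changed by -0.10 ± 0.11, 0.01 ± 0.12 and -0.14 ± 0.12 in HG1, HG2 and HG3, and its interval for the mean of the dose labels was -0.26 to 0.11. At single dose labels the libraries did not overlap with HGC for Irs2 in HG1, for Irs2 and Igf2r in HG2, and for Irs2, Igfbp2, Igfbp4 and Igfbp5 in HG3, that is for 1, 2 and 4 of the 10 genes. Of all genes 14.3%, 22.1% and 20.7% were separated in this way. Igfbp2 had log2 changes of 0.10 ± 0.34, 0.52 ± 0.37 and 0.67 ± 0.37, none past the test, with libraries as far apart as 14.1, 10.5 and 34.2 CPM within HG1.

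**Figure D3:**
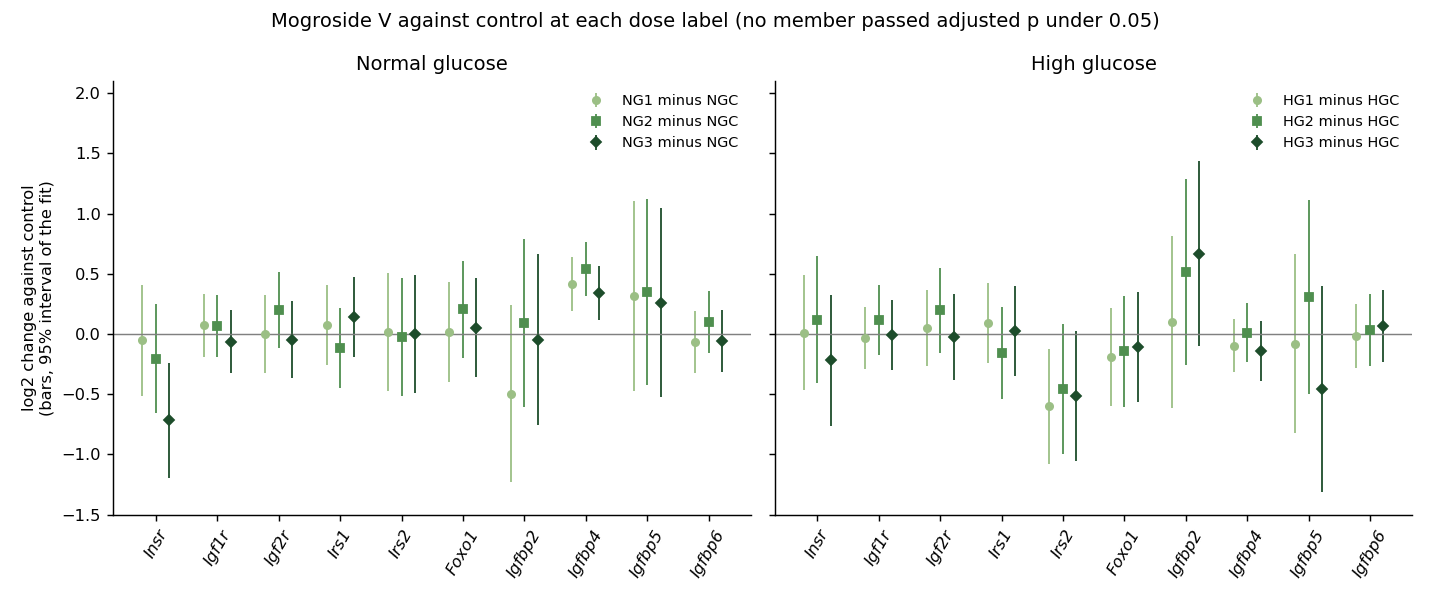
Log2 change against the control of the same medium (vertical axis, bars of the 95% interval of the fit) for the 10 genes at dose labels 1, 2 and 3, in normal glucose (left) and high glucose (right). Igfbp4 lies at 0.34 to 0.54 in normal glucose and near 0 in high glucose, Irs2 near 0 in normal glucose and at -0.60 to -0.46 in high glucose, and no gene passed an adjusted p of 0.05.

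The difference itself between the treatment changes in the 2 media was tested as an interaction. For Igfbp4 it was -0.51 ± 0.13 (unadjusted p = 0.000382, edgeR adjusted p = 0.188) and for Irs2 -0.52 ± 0.27 (adjusted p = 0.637). None of the 10 genes passed, and of all genes edgeR called 0.00753% (1 gene), while 1126 had an unadjusted p under 0.05 and DESeq2 called 29. DESeq2 placed Igfbp4 at an adjusted p of 0.0496. The other 8 genes had interaction values between -0.39 (Igfbp5) and 0.58 (Igfbp2), with standard errors of 0.44 and 0.40 for these genes.

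Irs2 and Igfbp4 were also related to each other and to the other 8 genes across libraries, within each medium, in 34 relations of log2 CPM. Each medium pools its control and dose groups, so r and rho also carry differences between group means. None passed the Benjamini-Hochberg adjustment over the 34 (lowest adjusted permutation p of 0.424 for Pearson's r and 0.347 for Spearman's rho). Irs2 against Igfbp4 gave r = 0.105 in the 12 normal-glucose libraries (permutation p = 0.741, rho = 0.105, p = 0.748) and r = 0.537 in the 10 high-glucose libraries (permutation p = 0.111, rho = 0.467, p = 0.178). Without the libraries farthest from the median of Irs2, r was -0.03 and 0.81. The lowest unadjusted p in the normal medium was that of Igfbp4 against Igfbp5 (r = 0.647, permutation p = 0.0229, rho = 0.706, p = 0.0131, and r = 0.667 without 2 libraries). In the high medium Irs2 against Foxo1 gave r = 0.676 (permutation p = 0.0323, rho = 0.624, p = 0.0612, and 0.631 without 2 libraries), and Igfbp4 against Igfbp6 gave r = 0.662 (permutation p = 0.0374, rho = 0.661, p = 0.0437, and 0.494 without 2 libraries). By rho, Irs2 in normal glucose also stood at -0.643 with Irs1 (permutation p = 0.0278) and 0.587 with Igf1r (permutation p = 0.0481). Deviations from group means carry no test here, and the 2 libraries of HG2 or of HG3 deviate by equal and opposite amounts. As such deviations the 3 pairs above gave r = 0.67, 0.74 and 0.90. Irs2 against Igfbp4 gave 0.24 in normal and 0.49 in high glucose, and Igfbp4 against Igfbp5 only 0.05 in high glucose. The sign of r was kept in 27 of the 34 relations.

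**Figure D4:**
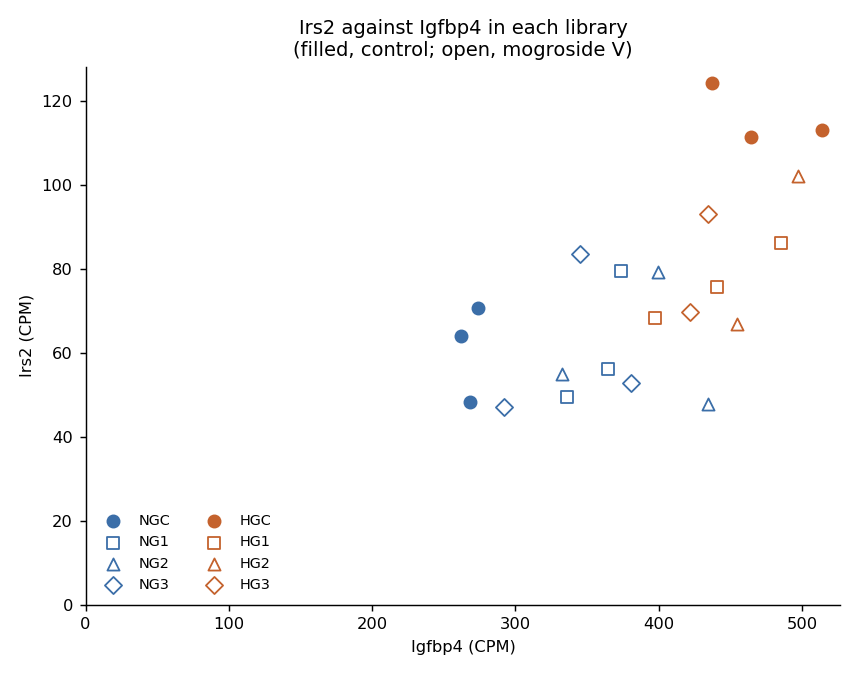
Irs2 (vertical axis, CPM) against Igfbp4 (horizontal axis, CPM) in each of the 22 libraries, by group, with filled points for controls and open points for mogroside V. The 3 HGC libraries stand at 111 to 124 CPM of Irs2, and the 3 NGC libraries at 262 to 274 CPM of Igfbp4 lie left of all treated libraries.

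Other genes followed similar group means. Of 8640 genes with a mean of at least 10 CPM, those with the highest Pearson's r to Irs2 over the 8 group means of log2 CPM were Narf (0.97), Slc11a2 (0.96), D130007C19Rik (0.96), Ctnnb1 (0.94) and Fam171b (0.94). For Igfbp4 they were Rspo1 (0.98), Mme (0.98), Pxylp1 (0.97), Fbln5 (0.97) and Npc2 (0.97). With 8 points and 8640 genes compared such values are a description and carry no test.

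The genes around the 10 were taken as lists, which like the 10 were drawn up with earlier results of these data known. Of 9 insulin and IGF ligands and further carriers 2 were expressed enough to be tested. Ins1, Ins2 and Igfbp1 had a count of 0 in all 22 libraries, and Igf2 had a count in 1 of them, while Igf1 was present at 8.07 CPM on average (3.44 to 11.8). Neither Igf1 (log2 -0.21 ± 0.17, edgeR adjusted p = 0.514) nor Igfbp7, a low-affinity IGF binding protein (0.09 ± 0.09, adjusted p = 0.616), passed between the media over all levels.

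Proteases that cut IGF binding proteins, with their inhibitors, had 4 of 10 tested genes rise and 0 fall over all levels (median log2 change 0.39, beside -0.01 over all genes). Of all genes 5.71% were called higher and 4.38% lower in that comparison, and 4.69% and 3.41% in the treated libraries. Stc1, a stanniocalcin and inhibitor of PAPP-A, rose from 137 ± 20.7 to 189 ± 27.4 CPM (log2 0.48 ± 0.08, edgeR adjusted p = 5.88e-05). Mmp14, a membrane metalloproteinase, rose by 0.30 ± 0.06, Mmp3 by 1.15 ± 0.07 and Ctsd, the lysosomal protease cathepsin D, by 0.52 ± 0.06. Pappa, the gene of the IGFBP4 protease itself, was low at 2.03 CPM (log2 0.64 ± 0.37, edgeR adjusted p = 0.319) and did not pass. Between the controls Stc1, Mmp3 and Ctsd rose, and in the treated libraries the same 4 genes rose and Htra1, a secreted serine protease, fell by 0.36 ± 0.10.

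Among 18 tested adaptors and receptor modulators 2 rose and 1 fell (median -0.06), set against the 5.71% and 4.38% of all genes. Grb10 and Grb14, which bind the activated insulin receptor and dampen its signal, rose by 0.24 ± 0.06 and 0.80 ± 0.17 on the log2 scale (edgeR adjusted p = 0.00368 and 0.00088). Sh2b3, a negative adaptor of cytokine receptors, fell by 0.48 ± 0.09 (adjusted p = 0.000181). Grb10 was also called between the controls, where it rose by 0.39 ± 0.11. In the treated libraries Grb14 rose by 0.91 ± 0.20 and Sh2b3 fell by 0.50 ± 0.11. In the list of PI3K, AKT and mTOR genes 2 of 31 rose and 0 fell (median -0.03), a share near the 5.71% of all genes. These were Tsc1, a brake on mTORC1 (0.32 ± 0.08, edgeR adjusted p = 0.00598), and Trib3, a pseudokinase that binds AKT (0.53 ± 0.17, adjusted p = 0.0380). In the treated libraries 0 genes of that list rose and Pik3cd fell by 0.45 ± 0.14. Of 16 tested FOXO factors and FOXO target genes 2 rose and 0 fell (median -0.04, with 5.71% of all genes higher). Klf9, a Krüppel-like factor, rose from 246 ± 42.8 to 390 ± 45.8 CPM (log2 0.65 ± 0.07, edgeR adjusted p = 7.34e-09), and Fbxo32, a ubiquitin ligase of muscle wasting, from 6.88 ± 2.28 to 13.5 ± 2.87 CPM (0.96 ± 0.18, adjusted p = 0.000189). In the treated libraries Klf9 (0.59 ± 0.08) and Fbxo32 (0.89 ± 0.21) rose, and Ccng2, another gene of that list, fell by 0.44 ± 0.13. Between the controls Klf9 rose by 0.84 ± 0.13. Between the media at single dose labels, Mmp3 rose at all 3 (edgeR adjusted p = 8.35e-07, 3.82e-05 and 2.07e-06), Ctsd at dose labels 2 and 3 (0.0185 and 0.0377) and Klf9 at dose label 3 (0.00189). No gene of the lists was called in mogroside V against the control of the same medium or in the interaction.

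**Figure D5:**
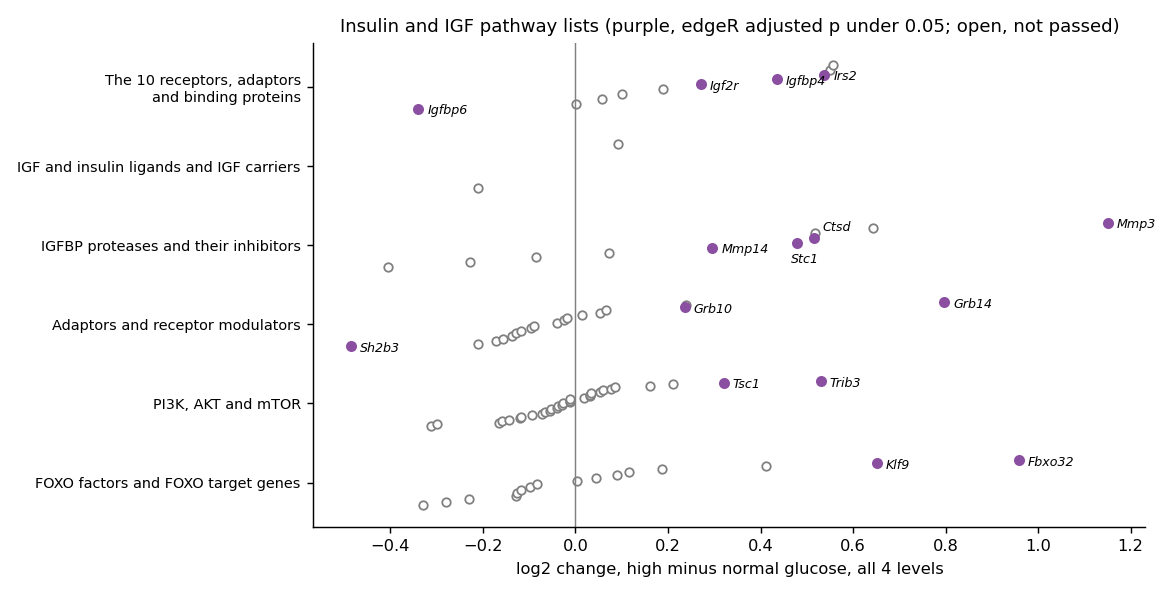
Log2 change between high and normal glucose over all 4 levels (horizontal axis) for each tested gene of the 10 and of the 5 lists (rows), purple and named where the edgeR adjusted p was under 0.05. Mmp3 lies farthest right at 1.15, and among the 31 genes of the PI3K, AKT and mTOR row only Tsc1 and Trib3 are purple.

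Of 17 tested markers of 7 lists for neurons, hypothalamus, glia, endothelium and fibroblasts, 4 were called over all levels, 3 higher and 1 lower, beside 10.1% of all genes. Of 7 tested fibroblast and pericyte markers Col1a1 and Acta2 rose (log2 0.23 and 0.24, edgeR adjusted p = 0.00666 and 0.00787) and 0 fell. Among 5 microglial markers 2 were tested and Csf1r rose (log2 0.88, edgeR adjusted p = 0.00533). The microglial sum was 4.44 to 12.9 CPM in normal and 8.04 to 23.3 CPM in high glucose, with Aif1 at 0 in 18 and P2ry12 at 0 in 16 of 22 libraries. Map2 fell among 6 tested neuronal markers (by 0.39 on the log2 scale, adjusted p = 0.000853 in edgeR). Between the controls none of these 4 markers passed (edgeR adjusted p = 0.477 for Col1a1, 0.637 for Acta2, 0.930 for Csf1r and 0.868 for Map2). Pdgfrb was the 1 of the 17 that did (edgeR adjusted p = 0.0357). That comparison had n = 3 each and a median standard error of 0.23 over all genes, beside 0.12 over all levels. Not passing there is therefore no sign that a marker was unchanged. The part of marker shifts in the changes of Igfbp4, Igfbp6, Irs2 and Igf2r was not tested.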

How the data were processed

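Per the labels' protocols, libraries were prepared from DNase-treated polyadenylated RNA. The authors deposited a table of raw gene counts for each library. GRCm39, STAR 2.7.5c, HTSeq 1.99.2, FastQC 0.11.9 and DESeq2 3.16 stand in the submitters' processing notes, with no role given. HTSeq summary lines stayed out of library sizes and tests. In the 22 libraries used, reads outside genes took 14.4 to 20.6% of a library, ambiguous reads 3.46 to 4.15% and reads aligned to several places 16.5 to 18.9%. Symbols matched 51948 of 56941 IDs.

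Counts were tested with edgeR 4.0.16 in R 4.3.3 (TMM factors, default low-count filter, group means of all 8 groups in 1 fit, robust quasi-likelihood F tests). Benjamini-Hochberg adjustment ran over the 13281 tested genes of each of 15 comparisons, with calls at 0.05. There were 14 residual degrees of freedom, and the common biological coefficient of variation was 0.149. Standard errors were derived from the F statistics. CPM used TMM library sizes, and correlations used log2 CPM with a prior count of 0.5 and 100000 permutations. Exon lengths are merged GENCODE M21 exons, of an earlier build than the one counted on. Alternatives were DESeq2 1.42.0, RLE factors, no filter, only the groups compared, the replicate number as a block, 3 treatments of the identical files, each library left out, and both NG3 replicate 3 and HGC replicate 2 left out. HGC replicate 2 had 4222350 gene counts and 17110 genes with a count, both within the range of the other libraries. The pipeline was tested on simulated data.

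The named genes are the 10, members of the lists past the threshold, and for Irs2 and Igfbp4 the 5 genes most alike over group means. The 10 genes, the lists and the tests were chosen with earlier results of these data known.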

Additional observations from a re-analysis of the deposited data

How the results depend on the processing

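Over 31 alternative fits the 10 genes in 15 comparisons gave 4650 values, of which 4575 kept their side of the threshold, 31 lost a call, 44 gained one and 0 called values turned direction. Another 207 values, uncalled before and after, changed sign. Between the media over all levels 4 of the 10 genes were called, and 3 to 5 in fits without 1 library. The replicate block called Igfbp2 as well (adjusted p = 0.0078). Between the controls the count was 2, and 1 with the replicate block and without both NG3 replicate 3 and HGC replicate 2, since Irs2 was lost (adjusted p = 0.0578 and 0.133). Leaving out 1 library gave 1 to 2. In the treated libraries the count was 3, and 5 with all 24 files or with the identical file kept in HG3 only, where Irs2 and Igf2r passed. Irs2 also passed with DESeq2 and without the filter. Leaving out 1 library gave 1 to 4. At dose label 1 between the media it was 0, and 1 with only the groups compared in the fit (Igfbp4). At dose label 3 it was 0, and 1 with all 24 files or the identical file kept in HG3 only (Igfbp4). NG2 against NGC gave 0, and 1 with DESeq2, without the filter and without both libraries, each time Igfbp4 (adjusted p = 0.00719, 0.00748 and 0.0101), and 0 to 1 without 1 library. NG3 against NGC gave 0 to 1 without 1 library, the 1 being Igfbp4 without NG3 replicate 2 (0.0461). HG1 against HGC gave 0, and 1 without the filter and with only the groups compared (Irs2, 0.0244 and 0.0396). All dose labels against NGC gave 0, and 1 with DESeq2 and without the filter (Igfbp4, 0.0045 and 0.0078), and 0 to 1 without 1 library, passing without NG2 replicate 2 (0.0357) or NG3 replicate 2 (0.0191). The interaction gave 0, and 1 with DESeq2 (Igfbp4). The cause of these changes was not tested.

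No label says whether same-numbered libraries of different groups belong together. Their deviations from group means had a median correlation of 0.0064 (70 pairs, -0.093 to 0.147), against -0.0047 for other pairs. Taken over all tested genes, these values cannot exclude a link that touches only some genes. Beside the calls of Igfbp2 and Irs2 above, the replicate block changed no call of the 10 genes. Counts over all genes also moved. NG3 against NGC gave 17 genes, 0 to 182 without 1 library and 0 to 186 otherwise, and all dose labels against NGC gave 0 genes, up to 68. Between the controls 303 genes became 163 to 421 without 1 library. In the treated libraries 1076 became 654 to 1277 (up to 1573 otherwise). Between the media at dose labels 1, 2 and 3 the counts of 221, 101 and 122 became 65 to 376, 19 to 165 and 31 to 178 without 1 library, and reached 586, 280 and 354, or as few as 4 at dose label 3, otherwise. NG2 reached 25, HG1 50, HG2 2, HG3 3, all dose labels against HGC 5 and the interaction 42, from 1, 0, 0, 0, 0 and 1. No alternative fit moved the median log2 change of all genes by more than 0.024. Low counts limit Igfbp5, whose log2 changes against control had standard errors of 0.37 to 0.42.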
